A study of Mus musculus with 3 samples.

Results

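The 33 genes described here encode the enzymes of the tricarboxylic acid cycle and the proteins that feed and drain it, among 27998 genes in the matrices. They were taken by name: 7 bring pyruvate into the cycle, 18 catalyse its steps and 8 are anaplerotic or shuttle enzymes and carriers. All 33 were present in each matrix. The cells came from the bone marrow of 2 C57BL/6 mice and were sorted as DAPI-, lineage-negative and c-kit+, a sort that enriches stem and progenitor cells of the blood, and their RNA was read in 3 droplet libraries. A wild-type mouse gave the control library. The libraries called non_mCherry and mCherry are sort fractions of 1 other mouse, which carried the interferon-inducible Mx1-Cre and a heterozygous conditional Runx1-Runx1t1 (AML1-ETO) knock-in with the reporter mCherry placed after the fusion. Poly(I:C) turns the knock-in on, non_mCherry cells had not switched on the reporter, and for the control mouse no poly(I:C) treatment is stated in the labels. The ages of the mice are not given in the sources used here.

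Each group was 1 library, so nothing below has a replicate check and no test was possible. Against control, the mouse and the group cannot be told apart. A level is given in CPM, the UMIs of a gene per 1000000 UMIs summed over the cells of a library, and the 95% intervals cover counting error only. A member is called lower or higher where its level differed at least 1.5-fold and reached 20 CPM in 1 of the libraries compared. This is a limit of size and not a test.

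Pyruvate made by glycolysis enters the mitochondrion through a carrier and is turned into acetyl-CoA by the pyruvate dehydrogenase complex. The cycle joins acetyl-CoA to oxaloacetate, oxidises the product through isocitrate, 2-oxoglutarate, succinate, fumarate and malate, and hands the electrons to the respiratory chain as NADH and reduced flavin. Intermediates also leave for the synthesis of heme, aspartate, lipids and nucleotides, and anaplerotic enzymes refill the pools. Blood stem cells are known for resting largely on glycolysis, while erythroid precursors draw succinyl-CoA for heme.

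After filtering, 8857 control, 7850 non_mCherry and 10150 mCherry cells remained, with median UMIs per cell of 15416, 9242 and 8174. Between pairs of libraries, 16 to 36 of these cells had the same barcode. Kit, the sorted receptor, was read at 66.8 CPM in control, 56.6 in non_mCherry and 269 in mCherry, and Runx1t1, the ETO part of the fusion, at 0.216, 0.311 and 8.47 CPM. The makeup of the libraries differed, and markers of mature neutrophils, plasma cells and T and NK cells put some cells in gates of their own. All 6 markers of mast cells were detected in each library and summed to 249 CPM in control, 320 in non_mCherry and 11315 in mCherry. Of these sums Cpa3 gave 96.5, 183 and 10471 CPM. The 9 erythroid markers summed to 666, 775 and 14.2 CPM, and the 7 markers of neutrophil-directed progenitors to 12252, 7397 and 1399 CPM. The 12 cell cycle markers summed to 1826, 1897 and 692 CPM. RNAs encoded in the mitochondrial genome went the other way, at 18584, 18179 and 25306 CPM, and the nuclear RNA Malat1 stood at 4830, 5316 and 19778 CPM. With mitochondrial, ribosomal protein and Malat1 UMIs left out of the library totals, the counts of members given below for whole libraries did not change.

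The members together took 3516 CPM of the control library, 3280 of non_mCherry and 2339 of mCherry. Of the 33, 29 reached 20 CPM, and Pdhx, Aco1, Pcx and Slc25a10 stayed under it in all 3 libraries. In mCherry over control, 14 of the 29 were lower, where 24.2% of all 6580 genes past the minimum were, and 1 was higher, where 30.3% of all genes were. The median of the 29 log2 quotients was -0.53, and that of all genes was 0.09. In mCherry over non_mCherry, which are fractions of 1 mouse, 13 of 29 were lower beside 22.1% of all genes, and 1 was higher beside 30.2%. The median there was -0.46 beside 0.11 for all genes. In non_mCherry over control none of the 29 was lower or higher, where 1.17% and 2.73% of all genes were, and the median was -0.11 beside -0.04 for all genes. The member furthest apart there was Idh1, 1.35-fold lower. The first pair of these comparisons share the mCherry library, and both comparisons with control share that one. With whole-library sums, fewer cells of a type and less RNA of a gene per cell cannot be told apart.

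**Figure D1:**
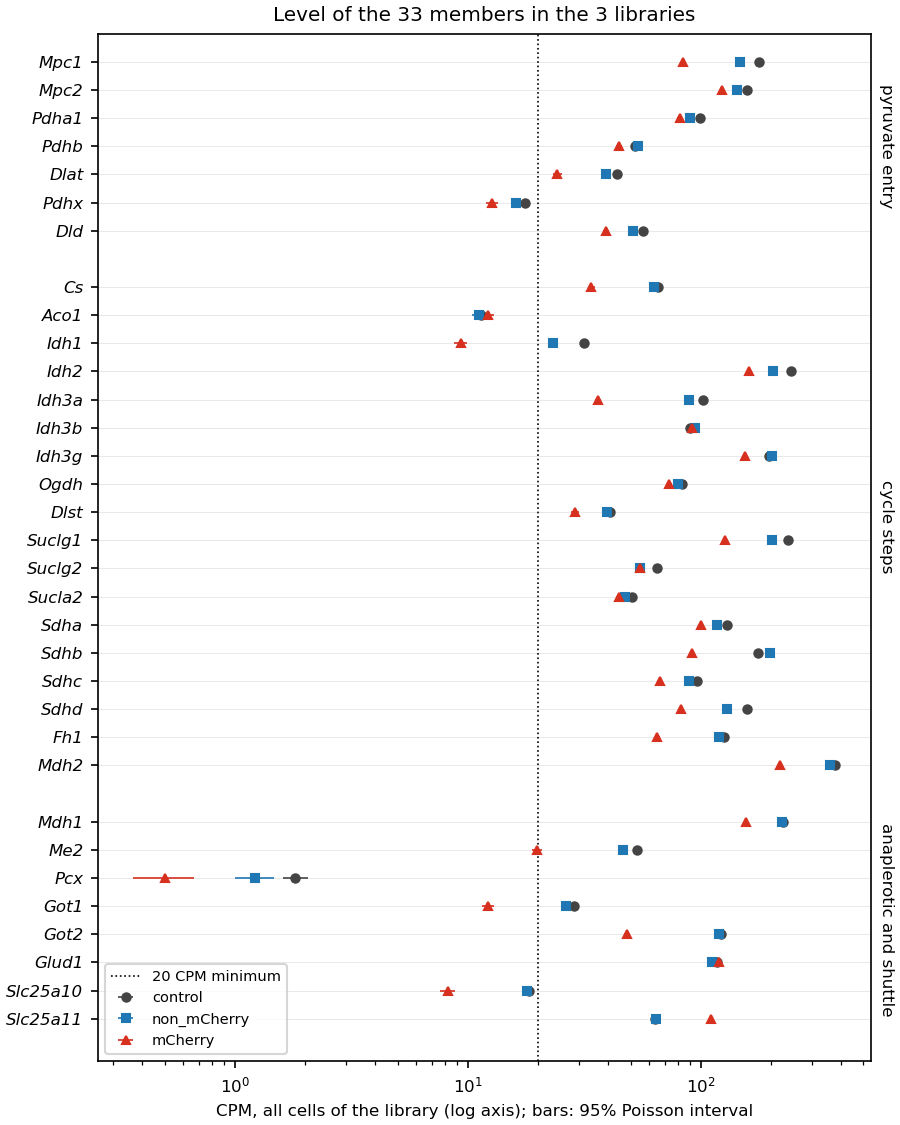
Level of each of the 33 members in CPM (log axis) in control, non_mCherry and mCherry, with 95% Poisson intervals of the counts and a dotted line at the minimum of 20 CPM. The mCherry points lie left of the other libraries for most members, lie between them for Idh3b and Suclg2, and lie right of them for Slc25a11 and, by less than the limit, for Glud1 and Aco1.

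**Figure D2:**
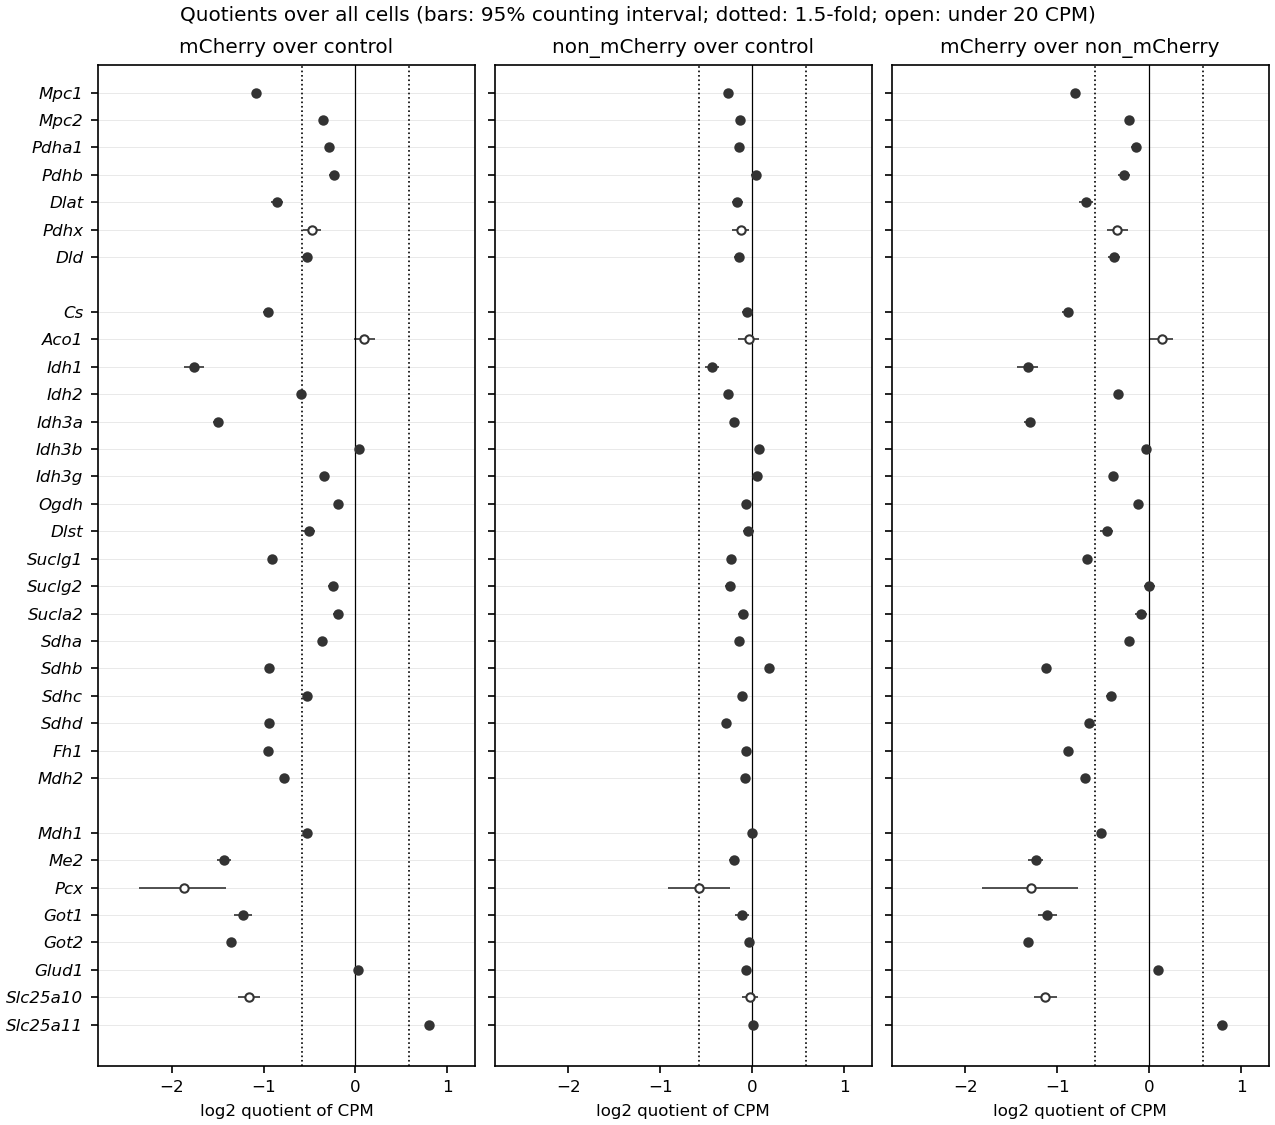
Log2 quotients of CPM for the 33 members in the 3 pairs of libraries, with 95% counting intervals, dotted lines at 1.5-fold and open symbols for members under 20 CPM. In both comparisons of mCherry the points reach past the left dotted line for 14 and 13 of 29 members, and in non_mCherry over control none of the 29 does.

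Of the proteins that bring pyruvate in, 2 of 6 past the minimum were lower in mCherry over control, where 24.2% of all genes were. Mpc1 (chr17:8282904-8297661, plus strand), an obligate subunit of the mitochondrial pyruvate carrier, was read at 177 CPM in control, 147 in non_mCherry and 84.1 in mCherry. It was thus 2.11-fold lower in mCherry than in control (95% counting interval 2.06 to 2.16). A processed pseudogene of it is annotated but is not in the matrices, and whether reads from that copy entered the Mpc1 counts was not tested. Mpc2, the partner of Mpc1, stood at 158, 144 and 123 CPM, 1.28-fold lower and inside the limit. Over whole libraries the same contrast held within the pyruvate dehydrogenase complex, but its lower member Dlat was lower in none of the 5 lineage gates compared below. Dlat, the acetyl-transferring core E2, was read at 43.8 CPM in control, 39.1 in non_mCherry and 24.3 in mCherry, 1.81-fold lower (1.72 to 1.9). Pdha1 and Pdhb, the subunits of the decarboxylase E1, went from 99.2 to 81.3 CPM and from 52.4 to 44.5 CPM between control and mCherry. Dld, the E3 shared with other dehydrogenase complexes, went from 56.6 to 39.2 CPM, 1.44-fold lower (1.39 to 1.5). The tethering subunit Pdhx was read at 17.7, 16.2 and 12.7 CPM.

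In the oxidative arm from citrate to succinyl-CoA, the spread among members was widest at the isocitrate dehydrogenases. Cs, citrate synthase, which opens the cycle, was read at 65.6 CPM in control, 62.8 in non_mCherry and 33.9 in mCherry, 1.93-fold lower than in control (1.86 to 2.01). Idh3a (chr9:54586334-54604661, plus strand), the catalytic subunit of the NAD-dependent isocitrate dehydrogenase, was read at 102 CPM in control, 89.1 in non_mCherry and 36.3 in mCherry. It was 2.83-fold lower than in control (2.72 to 2.93) and 2.46-fold lower than in non_mCherry (2.36 to 2.56). The other subunits of the same enzyme were not: Idh3b (chr2:130279309-130284547, minus strand) stood at 89.7, 94.4 and 91.9 CPM, and Idh3g at 196, 203 and 154 CPM. The NADP-dependent isoenzymes also differed from each other. Idh1 (chr1:65158616-65186500, minus strand), the cytosolic form, was read at 31.5, 23.3 and 9.32 CPM, 3.38-fold lower in mCherry than in control (3.14 to 3.64), which was the largest drop of the 29. Idh2, the mitochondrial form, was read at 244, 204 and 162 CPM, which is 1.51-fold lower than control (1.48 to 1.54), next to the limit, and 1.26-fold lower than non_mCherry (1.23 to 1.29), inside it. Ogdh and Dlst, E1 and E2 of the 2-oxoglutarate dehydrogenase complex, stayed inside the limit at 83.3, 79.6 and 73.2 CPM and at 40.8, 39.6 and 28.8 CPM. Aco1, the cytosolic aconitase that doubles as an iron sensor, was under the minimum at 11.4, 11.1 and 12.2 CPM.

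From succinyl-CoA back to oxaloacetate, 5 members were called lower in mCherry over control, and 4 stayed inside the limit, beside 24.2% of all genes lower. Suclg1, the subunit common to both succinyl-CoA ligases, was read at 237 CPM in control, 202 in non_mCherry and 127 in mCherry, 1.87-fold lower (1.83 to 1.91). Its alternative partners Suclg2, of the GTP-forming enzyme, and Sucla2, of the ATP-forming one, went only from 65.1 to 54.9 CPM and from 50.7 to 44.5 CPM. Succinate dehydrogenase, which is also complex II of the respiratory chain, was divided. Sdhb (chr4:140961203-140979193, plus strand), its iron-sulfur subunit, was read at 176, 199 and 91.6 CPM, 1.92-fold lower than control (1.87 to 1.97) and 2.18-fold lower than non_mCherry (2.12 to 2.23). The membrane anchor Sdhd stood at 158, 129 and 82.3 CPM, also 1.92-fold lower than control (1.87 to 1.97). The flavoprotein Sdha at 130, 117 and 101 CPM and the other anchor Sdhc at 96.2, 88.9 and 66.6 CPM were inside the limit. Fh1, fumarase, was read at 126, 120 and 65.1 CPM, 1.93-fold lower than control (1.88 to 1.99). Mdh2, the mitochondrial malate dehydrogenase, was read at 377, 358 and 220 CPM, 1.71-fold lower (1.69 to 1.74). For each of these lower members the non_mCherry value lay nearer to control than to mCherry, and for Sdhb it lay above control.

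Among the anaplerotic and shuttle members, 3 of 6 past the minimum were lower in mCherry over control, with 1 higher, beside 24.2% and 30.3% of all genes. Got2 (chr8:95864134-95888547, minus strand), the mitochondrial aspartate aminotransferase, was read at 122 CPM in control, 120 in non_mCherry and 48.1 in mCherry, 2.55-fold lower than control (2.46 to 2.63). A processed pseudogene of Got2 is annotated too, and it is likewise not in the matrices. Got1, its cytosolic counterpart in the malate-aspartate shuttle, was read at 28.5, 26.4 and 12.2 CPM, 2.33-fold lower (2.18 to 2.49). Me2, the mitochondrial malic enzyme that turns malate into pyruvate, was read at 53.4, 46.6 and 19.8 CPM, 2.69-fold lower (2.56 to 2.83). Mdh1, the cytosolic malate dehydrogenase of the same shuttle, went from 225 and 224 CPM to 156 CPM, 1.44-fold lower (1.41 to 1.47). Slc25a11 (chr11:70644196-70647479, minus strand), the carrier that exchanges 2-oxoglutarate for malate, was the member that went up. It was read at 63.9 CPM in control, 64.4 in non_mCherry and 111 in mCherry, 1.74-fold above control (1.69 to 1.79). Glud1, glutamate dehydrogenase, which makes 2-oxoglutarate from glutamate, stood at 117, 112 and 120 CPM. Under the minimum were the dicarboxylate carrier Slc25a10 at 18.3, 18.0 and 8.21 CPM and pyruvate carboxylase, Pcx, at 1.82, 1.22 and 0.5 CPM (261, 106 and 46 UMIs).

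The bases before the start site were looked at because many members were lower together. RefSeq promoters (GRCm38.p6) matched 30 of the 33 members by symbol, all but Idh3a, Sdhc and Me2. Shown are 250 bases before the start of 3 members called lower in mCherry over control (Cs, Fh1 and Got1) and of 1 that was not (Ogdh), from the 9 members whose window holds no annotated exon. Capitals mark matches, on either strand, to any of the 7 motifs searched. These are TGTGGT for RUNX factors, AAGGTCA for ERR, GCATGCGC for NRF1, CACGTG for MYC, CCGGAAG for ETS factors, GGGCGG for SP factors and CCAAT for NF-Y, and the last pair read CCGCCC and ATTGG on the other strand.
Cs, chr10:128337477-128337726, plus strand: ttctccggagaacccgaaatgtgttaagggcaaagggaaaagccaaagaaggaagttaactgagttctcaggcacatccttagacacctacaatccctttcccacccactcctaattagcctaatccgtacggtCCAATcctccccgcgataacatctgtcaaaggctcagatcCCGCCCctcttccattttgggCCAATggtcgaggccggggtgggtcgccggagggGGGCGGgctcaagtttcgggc
Fh1, chr1:175625636-175625885, minus strand: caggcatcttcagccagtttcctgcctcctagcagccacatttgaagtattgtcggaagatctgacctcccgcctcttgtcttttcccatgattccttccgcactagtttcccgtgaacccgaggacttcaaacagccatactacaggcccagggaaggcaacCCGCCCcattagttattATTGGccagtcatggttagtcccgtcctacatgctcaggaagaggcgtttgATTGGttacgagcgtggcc
Got1, chr19:43524606-43524855, minus strand: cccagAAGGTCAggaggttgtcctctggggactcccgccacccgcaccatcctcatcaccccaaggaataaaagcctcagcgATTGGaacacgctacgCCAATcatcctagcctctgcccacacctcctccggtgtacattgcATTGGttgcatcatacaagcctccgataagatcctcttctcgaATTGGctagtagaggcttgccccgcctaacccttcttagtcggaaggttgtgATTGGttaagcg
Ogdh, chr11:6291347-6291596, plus strand: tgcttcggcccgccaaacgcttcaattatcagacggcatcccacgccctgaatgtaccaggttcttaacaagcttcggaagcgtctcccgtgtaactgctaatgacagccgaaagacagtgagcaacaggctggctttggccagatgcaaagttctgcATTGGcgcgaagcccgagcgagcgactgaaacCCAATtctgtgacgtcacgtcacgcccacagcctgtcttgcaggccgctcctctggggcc
The CCAAT letters stand in all 4 windows, 5 times in that of Got1 and 2 times in each of the others. The SP letters stand in those of Cs and Fh1, and the ERR letters in that of Got1. Over the 30 windows, SP letters were in 63.3% and CCAAT letters in 56.7%, where 8907 and 9331 of 27025 promoters of this length held them. SP letters were in 8 of the 12 windows of members called lower and in 11 of the 18 others. CCAAT letters were in 7 of 12 and 10 of 18. These 18 include Pdhx, Aco1, Pcx and Slc25a10, which stayed under the minimum and could not be called. The split therefore does not set lower members against members shown to be unchanged. The RUNX letters were in 2 windows, those of Mdh2 and Pdha1, beside 14.2% of all promoters. NRF1 letters were in 2 (all promoters 2.31%), ERR letters in 1 (4.04%), MYC letters in 1 (6.04%) and ETS letters in 4 (7.07%). A match describes letters and not a bound site.

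A further 45 genes of the pathway were counted from a list of regulators, assembly factors, carriers and side branches. In mCherry over control, 6 of the 21 past the minimum were lower and 2 were higher, beside 24.2% and 30.3% of all genes. The median log2 was -0.22. The count of lower genes was thus near the share of all genes and does not set this list apart. The values in this paragraph are whole-library sums, in which cell makeup and RNA per cell cannot be told apart. In non_mCherry over control 1 of 21 was lower and none higher, beside 1.17% and 2.73%. The 2 lactate dehydrogenase subunits, which interconvert pyruvate and lactate, both stood lower in mCherry. Ldhb was read at 26.6 CPM in control, 9.49 in non_mCherry and 1.26 in mCherry, 21.1-fold below control (17.6 to 25.6), and it was also the gene called in non_mCherry, 2.81-fold below control (2.6 to 3.03). Ldha was read at 695, 643 and 411 CPM, 1.69-fold lower (1.67 to 1.71). Slc16a1, the monocarboxylate transporter that carries lactate and pyruvate across the plasma membrane, was read at 41.8, 43.8 and 9.07 CPM, 4.61-fold lower (4.28 to 4.96). The aspartate-glutamate carriers of the malate-aspartate shuttle were lower as well: Slc25a13 went from 22.2 to 7.13 CPM and Slc25a12 from 30.6 to 16.4 CPM between control and mCherry. The last lower gene was Trap1, a mitochondrial chaperone, at 81.2 and 44.7 CPM. The 2 higher genes were Pck2, the mitochondrial enzyme that makes phosphoenolpyruvate from oxaloacetate, at 40.2, 50.4 and 108 CPM, 2.69-fold above control (2.6 to 2.78), and Glul, glutamine synthetase, at 43.1, 56.6 and 84.6 CPM.

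Because the libraries hold different cells, the members were also summed within gates, each the cells whose highest score came from 1 of 15 lists of lineage markers. A gate is a range of a score and not a type. In the control library 12 gates held at least 50 cells, and the members summed to between 2468 CPM in the T, NK and innate lymphoid gate and 3810 CPM in the gate of neutrophil-directed progenitors. The erythroid gate (1174 cells) had the highest level of 18 of the 33 members, and in non_mCherry (1029 cells) it had that of 16. How many of all genes peak in this gate was not counted, so these numbers do not set the members apart. Some were near ties in control, such as Pdha1 at 110 CPM against 109 in the monocyte-directed gate. Sdha stood at 140 against 137 CPM in the megakaryocyte gate, and Pcx peaked at only 4.0 CPM. In control, Sdhd stood at 226 CPM (95% Poisson interval 220 to 232) in the erythroid gate, 172 (168 to 176) in that of neutrophil-directed progenitors and 96.4 (89.1 to 104) in the stem gate. Dlat stood at 72.2 CPM in the erythroid gate and at 45.2 CPM in the next highest. Idh3a was likewise highest there, at 147 CPM (142 to 152), above the 109 CPM (106 to 112) of the neutrophil-directed gate. Erythroid cells over stem cells within control gave 10 members higher and 3 lower of 30, beside 17.0% and 24.5% of all genes. Within non_mCherry the same pair gave 13 higher and 3 lower of 29, beside 18.8% and 25.3%.

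Not every member had its peak in erythroid cells. Idh1 was lowest there, at 4.59 CPM (3.8 to 5.49) in control. It reached 50.2 CPM (48 to 52.5) in the neutrophil-directed, 53.1 CPM (50.4 to 55.8) in the monocyte-directed and 55.3 CPM (47.4 to 64.2) in the basophil gate, with neighbouring intervals that overlap. The 8.2 CPM of the megakaryocyte gate (5.98 to 11) came next to the erythroid value. In non_mCherry the order was the same at its ends, with 6.09 CPM in the erythroid and 56.4 CPM in the basophil gate. Glud1 was lowest in the erythroid gate of control as well, at 55.8 CPM (52.9 to 58.8), and highest in eosinophil progenitors at 219 CPM (189 to 253). Idh2 stood at 117 CPM in erythroid and 312 CPM in neutrophil-directed cells, and Mdh1 at 140 and 272 CPM. In the neutrophil-directed gate over the stem gate of control, 4 of 29 members were higher and none lower, beside 8.13% and 24.0% of all genes. Those 4 were Idh1, Mpc1, Sdhd and Dld. In non_mCherry 10 of 29 were higher and none lower, beside 10.4% and 23.7%. The B cell progenitor gate held 2033 non_mCherry and 40 control cells, so it was compared only within non_mCherry, where Sdhb stood at 233 CPM against 140 CPM in the stem gate and Suclg2 at 32.8 against 73.7 CPM. In all, 4 of 29 members were higher and 2 lower there, beside 17.6% and 21.2% of all genes.

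**Figure D3:**
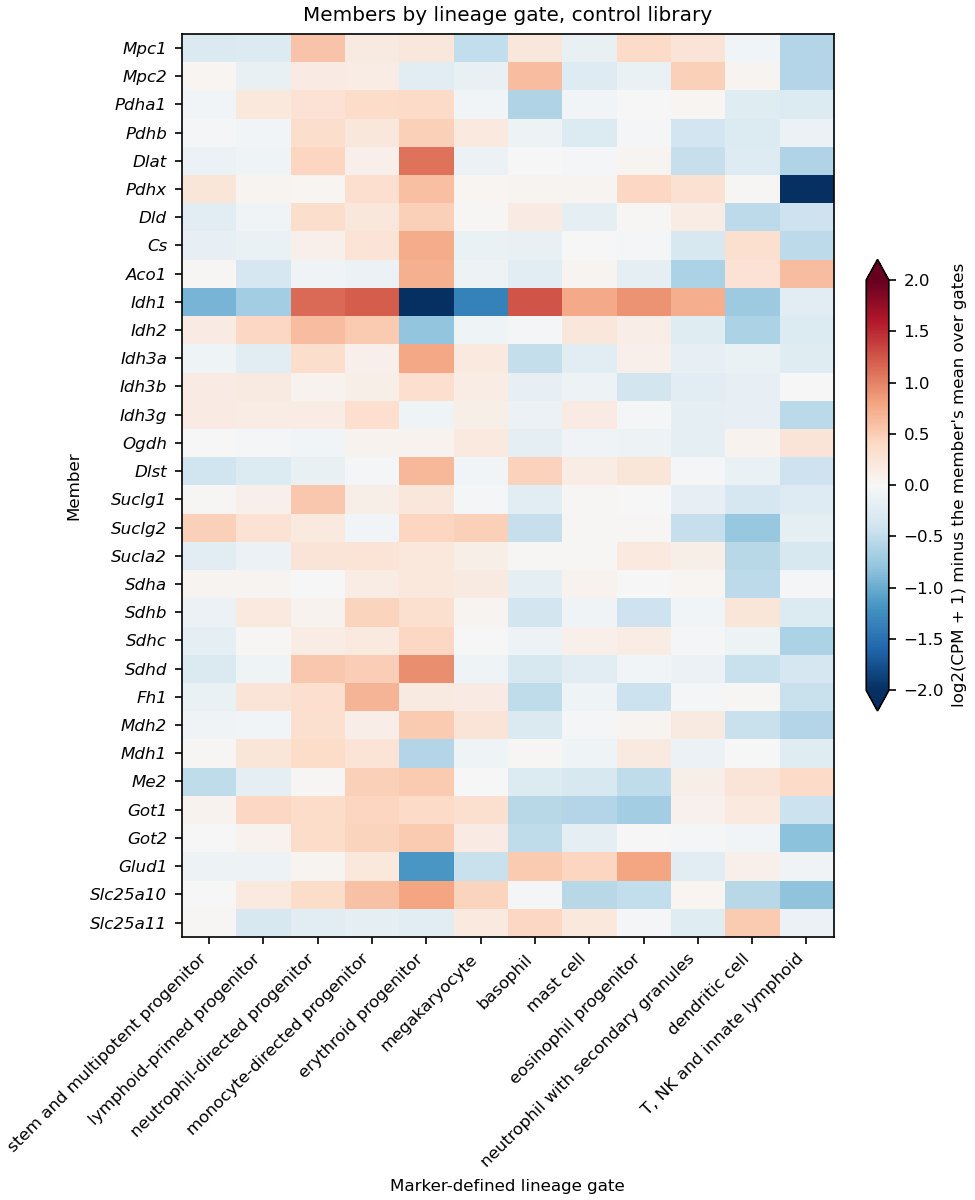
Members (rows) in the lineage gates of the control library (columns), as log2(CPM + 1) minus the mean of that member over the gates, with colours limited to -2 and 2. Pcx, at 1.82 CPM over the library, is left out. The erythroid column is red for Sdhd, Dlat and Idh3a and blue for Idh1, Glud1 and Idh2.

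Within the stem gate the difference between mCherry and control was smaller than over whole libraries. This gate held 574 control, 143 non_mCherry and 3670 mCherry cells, of which 30, 6 and 21 lay within 0.1 of the threshold. Its mCherry cells also carried mast markers, with a median mast score of 0.67. In mCherry over control 6 of 28 members were lower and none higher, beside 17.0% and 19.1% of all genes, and the median log2 was -0.30 beside 0.01. All 6 were also lower over whole libraries. Idh3a went from 80.3 CPM in control and 59.4 in non_mCherry to 37.8 CPM in mCherry, 2.13-fold below control (1.92 to 2.35). Got2 went from 99.3 and 83.2 CPM to 51.2 CPM, 1.94-fold below (1.77 to 2.12), and Got1 from 24.2 and 23.8 to 13.8 CPM, 1.75-fold below (1.46 to 2.1). Suclg1 stood at 206, 190 and 129 CPM, Me2 at 33.2, 26.9 and 20.8 CPM and Sdhb at 141, 140 and 91.8 CPM. The other 8 members that were lower over whole libraries were 1.13-fold to 1.45-fold below control in this gate. Among them Sdhd, 1.92-fold lower over all cells, stood at 96.4, 81.6 and 85.5 CPM, and Mpc1 at 127, 99.8 and 89.4 CPM. Idh1, at 11.3, 13.5 and 9.2 CPM, was under the minimum in the gate. Slc25a11 stood at 71.8, 86.4 and 106 CPM, 1.48-fold above control and just inside the limit. In mCherry over non_mCherry 4 of 28 were lower, Got1, Got2, Idh3a and Sdhb, and none higher, beside 14.4% and 22.0% of all genes. The median log2 there was -0.22. In both comparisons of mCherry in this gate, the count of lower members was near the share of all genes. In non_mCherry over control none of 28 was lower or higher, beside 4.5% and 3.56%.

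In the mast gate, with 330 control, 236 non_mCherry and 2406 mCherry cells, 12 of 28 members were lower in mCherry over control, with none higher, beside 18.3% and 23.5% of all genes. The median log2 was -0.52. The cells of this gate were not alike between libraries: the list with the next highest median score was basophil in control (0.364) and non_mCherry (0.558) and stem in mCherry (0.561). Idh1 had the largest difference here, from 38.7 and 36.2 CPM in control and non_mCherry to 11.2 CPM, 3.46-fold below control (2.8 to 4.27), while within control it stood at 55.3 CPM in the basophil and 11.3 CPM in the stem gate. What part the unlike cells have in these values was not tested. Idh3a stood at 72.5, 70.4 and 34.8 CPM, and Got2 at 86.6, 71.4 and 44.3 CPM. Glud1, inside the limit over whole libraries and in the stem gate, went from 171 and 188 CPM to 112 CPM, 1.53-fold below control (1.4 to 1.67). Slc25a11 stood at 81.9, 82.8 and 120 CPM. In mCherry over non_mCherry 8 of 28 were lower and none higher, beside 13.8% and 26.9% of all genes. Between the mast and stem gates within mCherry none of 27 members was lower or higher, beside 1.08% and 1.79% of all genes, and the median log2 was -0.11. The mast and stem gates of mCherry had near values for Idh3a (34.8 and 37.8 CPM) and Idh1 (11.2 and 9.2 CPM).

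**Figure D4:**
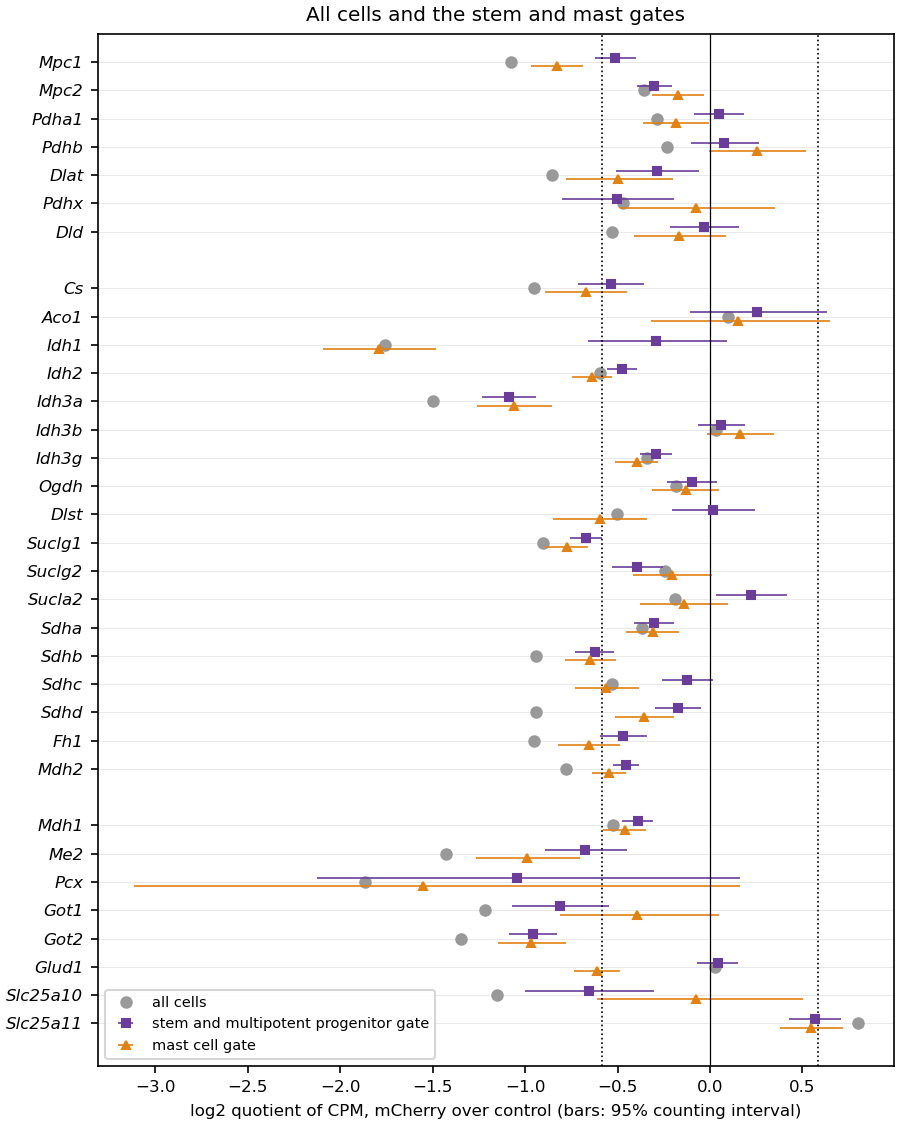
Log2 quotients of CPM of mCherry over control for the members in all cells (grey circles), in the stem gate (squares) and in the mast gate (triangles), with 95% counting intervals for the gates and dotted lines at 1.5-fold. Idh3a, Got2 and Me2 lie beyond the left dotted line in all 3 sets, while Sdhd lies beyond it in all cells and inside it in both gates.

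A further 3 gates had 50 or more cells in both mCherry and control: lymphoid-primed progenitors with 11 of 28 members lower and 1 higher (all genes 20.1% and 24.4%), basophils with 10 lower and 1 higher (20.8% and 31.5%) and dendritic cells with 6 lower and 1 higher (19.8% and 24.6%). The mCherry library had only 73 cells in the basophil and 114 in the dendritic gate, where the counting intervals of 5 of the 6 lower members left out 1. Got2 and Me2 were lower in all 5 gates, by 1.62-fold to 2.22-fold and by 1.59-fold to 2.94-fold. Idh3a, Mpc1, Sdhb and Suclg1 were lower in 4 of 5, and Cs in 3 of 5. Dlat, Mdh2 and Sdhd, lower over whole libraries, were lower in none of the 5 gates. The quotients of Dlat there ran from 0.707 to 1.0. Idh3b was lower in none and higher in 1. Slc25a11 was higher in 1 of the 5, with quotients from 0.917 to 1.77. The median of the members was below 0 on the log2 scale in all 5 gates, from -0.21 to -0.52, beside 0.01 to 0.13 for all genes. In mCherry over non_mCherry the lymphoid-primed gate had 9 of 28 members lower and 1 higher (all genes 17.4% and 27.5%), the basophil gate 10 and 1 (18.6% and 34.7%) and the dendritic gate 6 of 29 and none (14.8% and 23.6%), of which 3 had an interval that left out 1. Cells that met no list made up 18.2% of control, 18.7% of non_mCherry and 31.0% of mCherry. Among them 11 of 28 members were lower and 1 higher in mCherry over control (22.2% and 24.9%), and 4 of 27 lower and 1 higher in mCherry over non_mCherry (17.1% and 24.0%). These cells were not alike between libraries. Their highest median score was 0.646 in mCherry, for the mast list, but 0.007 in control and -0.001 in non_mCherry.

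Between non_mCherry and control, 10 gates could be compared, and in 7 of them no member was lower or higher. All genes there gave 2.69% lower and 1.54% higher in the lymphoid-primed, 0.69% and 0.978% in the neutrophil-directed and 0.584% and 0.809% in the erythroid gate. They gave 1.97% and 1.3% in the megakaryocyte, 4.32% and 1.41% in the basophil and 3.85% and 1.63% in the mast gate. Cells of no list likewise had no member lower or higher, beside 0.944% and 1.68%. The monocyte-directed gate had 1 of 30 members lower, Idh1, at 34.7 CPM against 53.1 CPM in control, and none higher, beside 1.37% and 1.47% of all genes. The dendritic gate had 2 of 29 higher, Dlat and Suclg2, and none lower (11.7% and 16.3% of all genes). The T, NK and innate lymphoid gate had 5 of 28 lower and none higher (21.4% and 10.3%). The control library had only 74 and 78 cells in that pair of gates, and the counting interval left out 1 for 1 of the 2 higher members (Suclg2) and 1 of the 5 lower ones (Idh2). The median of the members was below 0 in all 10 gates of this comparison too, from -0.01 to -0.11 on the log2 scale. That of all genes was below 0 in each as well, from -0.02 to -0.13.

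The share of cycling cells moved with the same comparison. With each cell thinned to 2000 UMIs, 13.7% of the control, 21.2% of the non_mCherry and 57.3% of the mCherry cells held no UMI of the 12 cell cycle markers, and 51.3%, 46.8% and 9.04% held 3 or more. The members summed to 3142 CPM in control cells with none and 3586 CPM in those with 3 or more, and to 2220 and 2784 CPM in mCherry. Among cells with none, 14 of 29 members were lower in mCherry over control, with 1 higher, beside 20% and 26.0% of all genes. With 1 to 2 cycle UMIs 14 of 29 were lower and 1 higher, beside 22.6% and 30.9%. Among cells with 3 or more, 10 of 30 were lower and 1 higher, beside 15.1% and 26.9%. Idh3a stood at 74.8 CPM in control and 30.9 CPM in mCherry in cells with none, and at 110 and 56.9 CPM in cells with 3 or more. Slc25a11 was 1.74-fold and 1.59-fold above control in these strata. In mCherry over non_mCherry, the fractions of 1 mouse, 6 of 28 members were lower and 1 higher in cells with none, beside 15.3% and 24.4% of all genes. There were 12 lower and 1 higher of 29 in cells with 1 to 2, beside 19.9% and 30.3%, and 7 lower and 1 higher of 29 in cells with 3 or more, beside 15.0% and 27.6%.

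Within the stem gate, the strata of mCherry over control had counts of lower members near the share of all genes. Cells with none had 4 of 27 members lower (Cs, Idh3a, Suclg1 and Got2) and none higher, beside 16.2% and 18.1% of all genes, with a median log2 of -0.21. Cells with 1 to 2 had 4 of 28 lower (Idh3a, Suclg1, Sdhb and Got2) and 1 higher (Slc25a11), beside 16.7% and 20%, with a median log2 of -0.34. Cells with 3 or more had 3 of 29 lower (Idh3a, Got1 and Got2) and none higher, beside 10.5% and 17.2%, with a median log2 of -0.20. In mCherry over non_mCherry, 6 of 28 were lower and none higher in stem-gated cells with 1 to 2 cycle UMIs, beside 15.4% and 23.3%. With 3 or more, 1 of 29 was lower and none higher, beside 11.8% and 22.8%, and the median log2 was -0.01. Only 39 non_mCherry cells of the gate held none, so that stratum was not compared. The strata with 1 to 2 and with 3 or more held 52 non_mCherry cells each, so their counts rest on few cells.

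**Figure D5:**
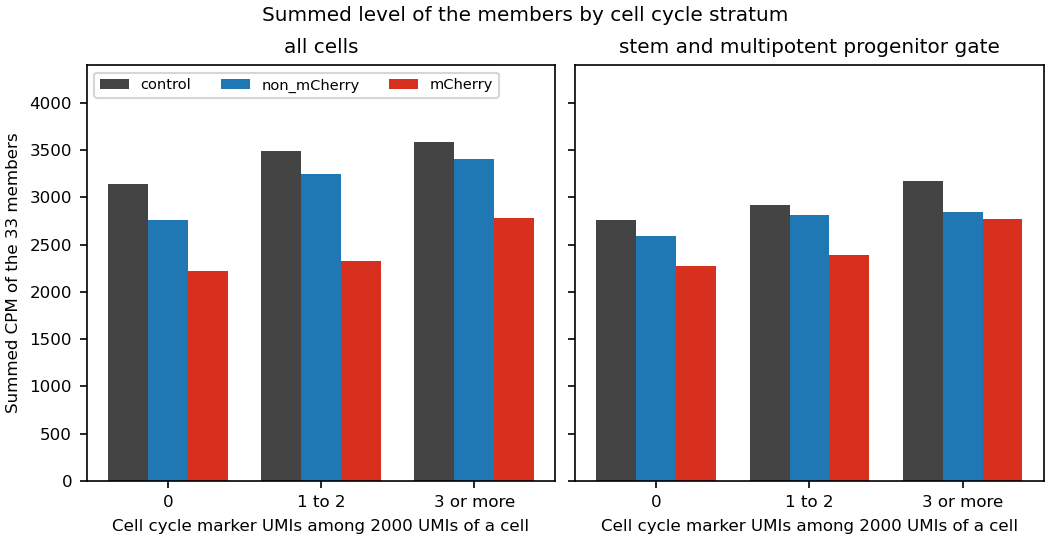
Summed CPM of the 33 members in cells with 0, 1 to 2 or 3 or more cell cycle UMIs among 2000, for all cells (left) and the stem gate (right), with 1 bar per library and no error bar because each bar is 1 library. The mCherry bar is the lowest in each stratum, 2220 CPM against 3142 CPM in control for all cells without a cycle UMI, and the gap is narrower in the stem gate.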

How the data were processed

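The authors deposited, for each of 3 libraries, a matrix of UMI counts with its barcodes and gene list. Per the labels these were 10x droplet libraries. The submitters' processing notes name Cell Ranger 6.1.2 and mm10, whereas the headers of the files give software version 3.1.0. Gene locations came from GENCODE for the same build, in which all 33 identifiers matched.

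The matrices held 9782 control, 9751 non_mCherry and 11323 mCherry barcodes with 150702749, 92776556 and 97404871 UMIs. Kept were barcodes of at least 1000 genes and 2000 UMIs with at most 10% of UMIs from mitochondrial genes. Left out next were 209, 206 and 269 doublets (Scrublet in scanpy 1.11.5, score over 0.25, a threshold chosen after the scores were seen). Doublets of like cells cannot be found this way.

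Lineage gates used log counts per 10000, scaled over control and non_mCherry cells and limited to 4. A cell took the list with the highest mean if that was at least 0.5 with 3 markers detected, and 2 listed markers were not in the matrices. The scoring and the cell cycle strata were set after the data were seen. The members and lists were chosen with earlier results of these data known.

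Counts were summed over cells to CPM. Quotients carry exact intervals of the counts and levels exact Poisson intervals, at 95%. All members are named, and other pathway genes where at least 2-fold apart from control with 20 CPM, and Ldha, Slc25a12, Trap1 and Glul were added after their values were seen. Alternatives were scalings, filters, fold limits, thinning, gates and strata. The analysis ran in Python 3.11.15 with numpy 2.4.6, scipy 1.17.1 and pandas 2.3.3.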

Additional observations from a re-analysis of the deposited data

How the results depend on the processing

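Without replicates, these alternatives show how the counts of members depend on choices and not how they vary between mice. Of the 14 members lower in mCherry over control, the number became 6 at a fold limit of 2 (all genes 12.3%). It became 6 in stem-gated cells alone (17.0%) and 9 with the mean over lineages (16.2%). The 1 higher became 0 under the same 3 (all genes 18.5%, 19.1% and 22.6%). For mCherry over non_mCherry the 13 lower became 6 at a limit of 2 (all genes 11.1%) and 8 with the mean of CPM per cell (20.5%). They became 8 when cells were thinned to 2000 UMIs (20.8%) and 6 in cells without a cell cycle UMI (15.3%). In stem-gated cells the number was 4 (14.4%), and with the mean over lineages it was 7 (14.1%). The 1 higher became 0 at a limit of 2 (all genes 17.6%), in stem-gated cells (22.0%) and with the mean over lineages (24.4%). For non_mCherry over control the 0 lower became 1 at a looser limit (all genes 5.02%) and 1 after thinning (2.66%). In the stem gate, the 0 higher in mCherry over control became 1 with median-of-ratios scaling (all genes 20.3%) and 1 after thinning (20.7%). For non_mCherry over control the 0 lower in this gate became 1 with a stricter gate (all genes 9.76%) and 5 after thinning (14.9%). The 0 higher of that comparison became 1 after thinning (all genes 13.3%). In the mast gate the 0 higher in mCherry over non_mCherry became 2 in cells without a cycle UMI (all genes 26.9%). That setting left fewer gates of 50 cells. The medians of the members were below 0 in 3 of 3 (mCherry over control), 6 of 6 (non_mCherry over control) and 2 of 2 (mCherry over non_mCherry). In the main setting all genes too had medians below 0 in the gates of non_mCherry over control. The stem gate, with 39 non_mCherry cells without a cycle UMI, gave no value in the comparisons that use that library. Sdhd in mCherry over non_mCherry changed sign in stem-gated cells, to 0.0676 on the log2 scale. Over whole libraries, median-of-ratios scaling moved all genes by at most 0.0224 on the log2 scale. In the stem gate it moved the all-gene median of mCherry over control from 0.0142 to 0.0512. In the mast gate that of mCherry over non_mCherry went from 0.1436 to 0.0824. The causes were not tested. No paired analysis was possible because each group is 1 library and the groups share fewer than 2 replicate numbers.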
